A study of Drosophila melanogaster with 2 samples.

Results

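The cytoplasmic ribosomal protein (RP) genes of Drosophila melanogaster were examined in chromatin immunoprecipitation with sequencing (ChIP-seq) data for the forkhead family factor fd96Cb. Members were the protein-coding genes whose Ensembl symbol is RpL or RpS followed by a number and optional letters, together with RpLP0, RpLP1, RpLP2 and sta, and sop, which this annotation lists as RpS2. The rule gave 86 of 13945 protein-coding genes on the 6 chromosome arms, of which 48 encode large subunit and 38 small subunit proteins. The rule uses gene symbols alone, although the list was taken up with earlier results of these data known.

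The study had a single group of 2 biological replicates, numbered 2 and 3. Each came from whole embryos aged 0 to 24 h of a transgenic line that stably expresses fd96Cb with green fluorescent protein (GFP) at its C terminus, so all embryonic cell types were pooled. The pull-down is described as anti-GFP, although the antibody field of the labels names fd96Cb. There is no second genotype, treatment or control peak list to set these replicates against, and neither the promoter that drives the fusion nor the state of the native gene is given in the sources used here.

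Ribosomal proteins assemble with ribosomal RNA into the small subunit, which reads the messenger RNA, and the large subunit, which joins amino acids. Their genes are active in nearly every growing cell, and in flies the loss of a copy of many of them gives the slow-growing, thin-bristled Minute phenotype. Many fly RP genes start transcription at a pyrimidine-rich initiator, called TCT, in place of the usual initiator. Forkhead proteins bind sites with a TAAACA core through a winged-helix domain.

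Each replicate list and the pooled list held 30000 peaks, and the optimal set, chosen by the irreproducible discovery rate (IDR), held 5743, which are the strongest 5743 of the pooled list. Signal values are the authors' own and were used only to rank peaks within a list, rank 1 being the strongest. Read depth is unknown, so no counting error can be attached to a peak. A gene was counted when a summit, the position of highest signal in a peak, lay within 1000 bp of any of its transcription start sites (TSSs). Its strongest such summit then gave its rank, signal and offset from its closest TSS, with negative offsets upstream. Peaks carry no strand, so a summit near the starts of several genes counted for each. With 1 group and 2 libraries there is no test over samples, and counts and medians of the RP genes are set beside those of all protein-coding genes as descriptions, with no test of the difference.

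Sequences at a few RP summits are shown as examples. Most were picked for a motif they hold, and the shares over all RP summits are given below. All were read from the RefSeq Release 6 genome, the build named dm6, on the coding strand of the gene from 5′ to 3′. Each covers 50 bases to each side of the pooled summit, cut off at the last base before the start of the gene where it would pass it. Motif counts used the uncut windows. RpS27 is shown because its summit was the strongest of the list, and no searched motif lay within its window (chr3R:25247515-25247590, minus strand).
RpS27: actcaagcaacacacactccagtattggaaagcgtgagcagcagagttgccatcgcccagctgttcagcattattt
RpL34b and RpL34a are duplicate copies of the same RP gene, and both had an IDR summit (RpL34b at chr3R:9401284-9401384 and RpL34a at chr3R:26059320-26059420, both minus strand). Capitals mark the forkhead core TAAACA, which in RpL14 (chr3L:8600910-8601005, plus strand) reads on the opposite strand.
RpL34b: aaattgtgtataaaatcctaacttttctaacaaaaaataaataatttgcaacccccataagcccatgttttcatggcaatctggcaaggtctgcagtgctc
RpL34a: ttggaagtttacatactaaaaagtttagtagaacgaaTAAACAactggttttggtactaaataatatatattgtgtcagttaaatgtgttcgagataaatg
RpL14: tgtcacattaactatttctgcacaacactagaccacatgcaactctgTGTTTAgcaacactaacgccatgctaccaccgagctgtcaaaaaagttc
The next windows hold TATCGATA, the site of the DNA replication-related element factor DREF, in capitals (RpL28 at chr3L:3222974-3223074, minus strand, RpS25 at chr3R:11216314-11216414, minus strand, and RpS12 at chr3L:13023272-13023351, plus strand). Of the motifs searched this had the highest count at RP summits, 8 of 52. RpL24 (chr2L:13395132-13395192, minus strand) shows the E-box CACGTG in capitals. Capitals mark the named motif alone. In RpL28 a GATAAG match on the opposite strand overlaps it. The windows of RpL34b and RpS25 also hold TATAAA, on the opposite strand in RpS25.
RpL28: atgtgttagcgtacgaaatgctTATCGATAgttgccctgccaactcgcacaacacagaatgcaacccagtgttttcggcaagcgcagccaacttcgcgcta
RpS25: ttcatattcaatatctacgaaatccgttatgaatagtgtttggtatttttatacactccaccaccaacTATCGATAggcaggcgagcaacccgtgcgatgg
RpS12: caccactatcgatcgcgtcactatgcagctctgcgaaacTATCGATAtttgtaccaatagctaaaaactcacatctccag
RpL24: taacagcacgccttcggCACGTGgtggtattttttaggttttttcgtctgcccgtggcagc

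RP promoters carried IDR summits at 52 of 86 genes (60.5%), against 3052 of 13945 protein-coding genes (21.9%). In the whole pooled list 81 RP genes (94.2%) had a promoter summit, while 55.9% of all genes did. Most RP promoters were thus listed, and 29 of them only below the IDR limit. Among the strongest 5743 peaks of replicate 2, 44 RP genes (51.2%) had a summit, beside 21.8% of all genes. In replicate 3 the same number of peaks gave 56 RP genes (65.1%), beside 21.6% of all genes. Taken whole, the replicate 2 list reached 64 RP genes (74.4%), with 51% of all genes, and the replicate 3 list 83 RP genes (96.5%), with 57.4% of all genes. The RP share was above that of all genes in each of these lists, and replicate 3 listed more RP genes than replicate 2 at both lengths.

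RP summits were frequent, and those in the IDR set were mostly of middling rank within it. No member lay among the 500 strongest pooled peaks, but the strongest, RpS27, fell just outside that limit at rank 512. With the IDR set divided by rank into 5 equal parts, strongest first, 3, 15, 17, 11 and 6 RP genes had their summit in each. Neither of these counts was taken over all genes, so only the median ranks can be compared. The median pooled rank of the 52 summits was 2873.5, against 2300.5 for the 3052 genes of the genome with an IDR summit.

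**Figure D1:**
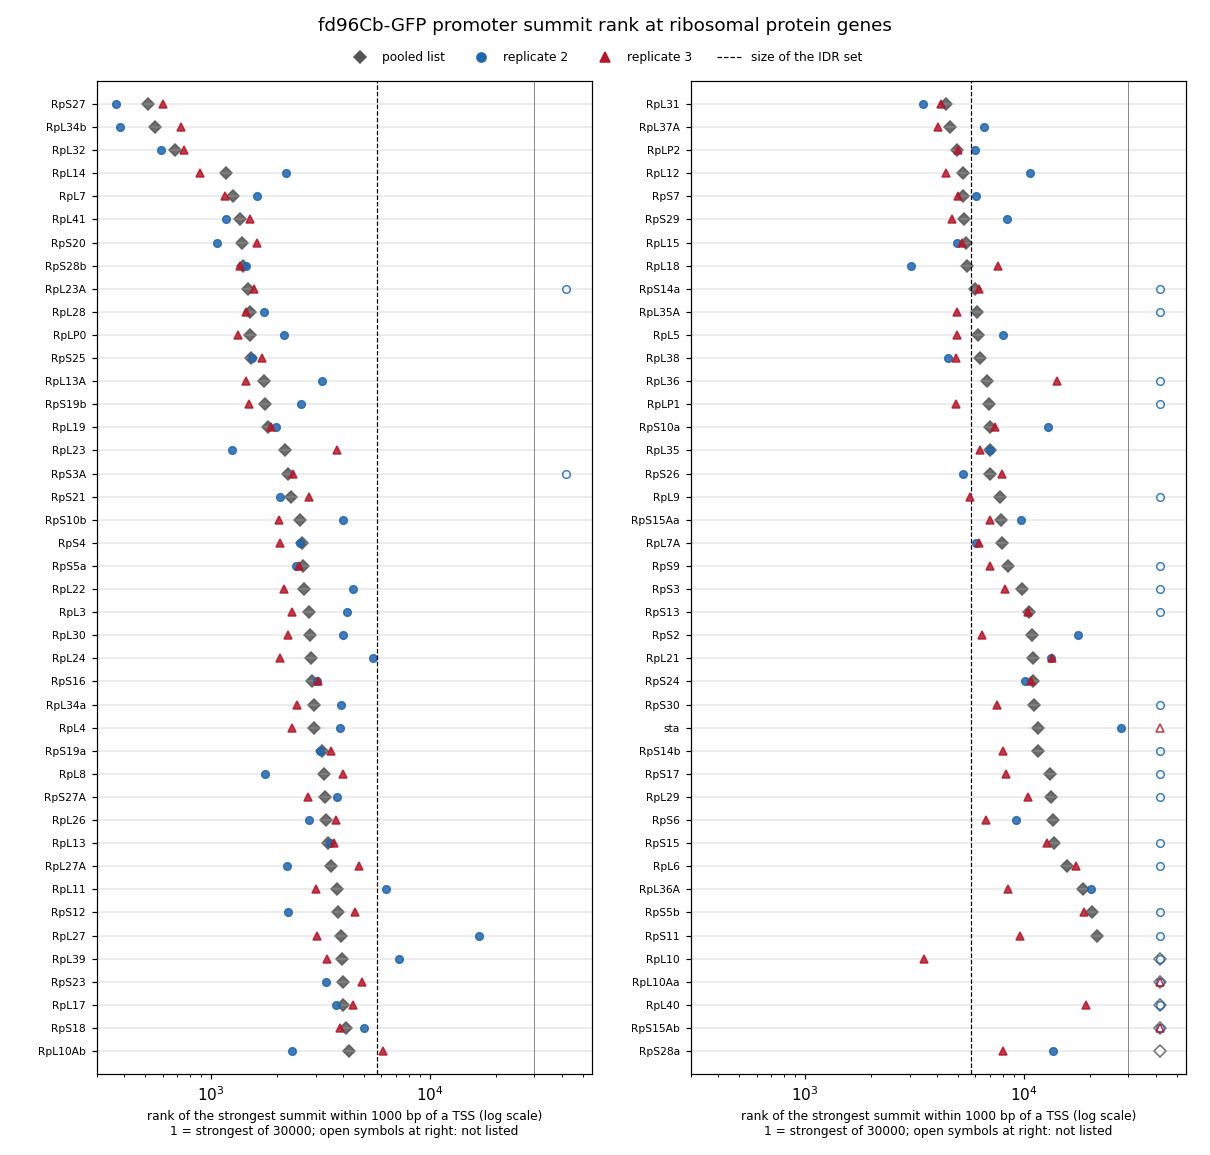
Rank of the strongest promoter summit of 84 of the 86 RP genes (log scale, rank 1 strongest) in the pooled list (diamonds), replicate 2 (circles) and replicate 3 (triangles), in the order of pooled rank. The dashed line is the size of the IDR set, 5743, and open symbols at the right mark genes with no summit in that list, most of which are circles of replicate 2.

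The strongest RP summits belonged to genes of both subunits. RpS27, a zinc-binding protein of the small subunit, had pooled signal 766 (rank 512) at a peak on 3R from 25247370 to 25247719, and ranked 368 in replicate 2 and 601 in replicate 3. RpL34b, the main copy of a large subunit gene, followed with signal 737 (pooled rank 552) on 3R from 9401162 to 9401557, and ranked 385 in replicate 2 and 730 in replicate 3. RpL32, known as rp49 and widely used as a reference gene in fly expression studies, had signal 657 (pooled rank 686) on 3R from 30046109 to 30046478, with ranks of 587 and 752 in replicates 2 and 3. These 3 genes were the strongest of the list in the pooled ranking and in both replicates, with RpL14 next to them in replicate 3, and each summit lay upstream, by 26 bp at RpS27, 108 bp at RpL34b and 131 bp at RpL32.

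The next RP summits ranked 1174 or weaker. RpL14, a large subunit protein with a Minute phenotype when its dose is reduced, had signal 469 (pooled rank 1174), and ranked 2208 in replicate 2 and 889 in replicate 3. RpL7, which lies on 2L, had signal 450 (pooled rank 1258) with its summit 41 bp upstream of the closest TSS, inside the 5′ UTR of a longer transcript. RpL41, the smallest ribosomal protein, had signal 428 (pooled rank 1351), and ranked 1169 in replicate 2 and 1499 in replicate 3. Of these 3 genes RpL14 had the least even ranks in the replicates. RpS20, RpS28b, RpL23A, RpL28 and RpLP0 were also among the 12 strongest, with pooled ranks of 1377, 1393, 1480, 1500 and 1504 and signals between 398 and 421. RpLP0 is the scaffold of the stalk through which the large subunit recruits elongation factors, and RpL23A lies at the mouth of the tunnel through which the new protein leaves.

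RpL23A and RpS3A had an IDR summit without any replicate 2 summit in the window. RpL23A ranked 1567 in replicate 3, and the closest summit of replicate 2 lay 3691 bp away. RpS3A, a small subunit protein and the only RP gene on chromosome 4, ranked 2250 in the pooled list and 2356 in replicate 3, with the closest replicate 2 summit 64011 bp away. Chromosome 4 as a whole held 42 peaks in replicate 2 and 404 in replicate 3, and the part of this imbalance in the RpS3A value was not tested. Of all 3052 genes with an IDR summit, 95 (3.11%) had no replicate 2 summit and 23 (0.754%) no replicate 3 summit, against 2 and 0 of the 52 RP genes.

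The limit of the IDR set, at pooled rank 5743, fell between RpL18 and RpS14a. Just inside it lay RpS29, RpL15 and RpL18, with pooled ranks of 5306, 5445 and 5470 and signals of 140, 136 and 136. Just outside lay RpS14a, RpL35A and RpL5, a carrier of 5S ribosomal RNA, with pooled ranks of 5972, 6084 and 6140 and signals of 124, 122 and 121. The lowest signal in the IDR set was 128.73, between the 2 sets of values. RpL18 was stronger in replicate 2 (rank 3049) than in replicate 3 (rank 7599), while RpS29 ranked 8334 in replicate 2 and 4684 in replicate 3.

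The 2 acidic stalk proteins that bind RpLP0 lay on either side of that limit. RpLP2 had an IDR summit at pooled rank 4939, 10 bp upstream of its TSS, and RpLP1 a pooled summit at rank 6962, also 10 bp upstream. RpS2, known as string of pearls after its oogenesis mutant, had its pooled summit at rank 10888, 10 bp downstream of a TSS, with ranks of 17731 in replicate 2 and 6428 in replicate 3. The gene sta (stubarista), which encodes the small subunit protein SA, had rank 11580 in the pooled list and 27861 in replicate 2, with no summit in replicate 3. It was the only RP gene listed in replicate 2 and not in replicate 3.

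The 29 RP genes with a pooled but no IDR summit had a median pooled rank of 10600. Their median offset was -44 bp, and 21 of the 29 summits lay within 150 bp of a TSS. In these weaker peaks the summit therefore lay close to the start as well, and 16 of the 29 genes had no summit in replicate 2 and 1 had none in replicate 3. All 29 intervals were 390 bp wide, the most common width in the pooled list, which 42.6% of IDR peaks also had. None of these counts was taken over all genes with a pooled but no IDR summit. Whether they are particular to RP genes is therefore not known.

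There were 5 RP genes with no pooled summit. RpL10, which takes part in joining the subunits, nonetheless had a replicate 3 summit of rank 3491, 9 bp upstream of its TSS, with none in replicate 2 and the closest pooled summit 1119 bp away. RpL40, made as a fusion with ubiquitin, had a replicate 3 summit of rank 19283, 296 bp downstream. RpS28a had its strongest summit 126 bp upstream in replicate 2 (rank 13628) and 603 bp downstream in replicate 3 (rank 8005). Replicate 3 also had a weaker summit (rank 12699) 76 bp from the RpS28a TSS. RpL10Aa and RpS15Ab had no summit in any list within the window, and their closest pooled summits lay 2613 and 1760 bp away. RpL10 thus stood inside the strongest 5743 of replicate 3 and outside the pooled list, and 3 of these 5 genes, RpL10Aa, RpS15Ab and RpS28a, are minor copies of duplicated genes.

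Large subunit genes had an IDR summit in 33 of 48 cases (68.8%) and small subunit genes in 19 of 38 (50%), with 21.9% over all genes. Among the strongest 5743 peaks of each replicate, the large subunit count was 27 in replicate 2 and 37 in replicate 3, and the small subunit count 17 and 19. The large subunit share was the higher in both replicates. In the pooled list 45 large subunit genes (93.8%) and 36 small subunit genes (94.7%) had a summit. The median rank of the IDR summits was 2946 for the large and 2616 for the small subunit, and the median offset -64 bp for the large and -29 bp for the small subunit. Whether the subunits differ was not tested, since genes are not replicates of a condition.

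**Figure D2:**
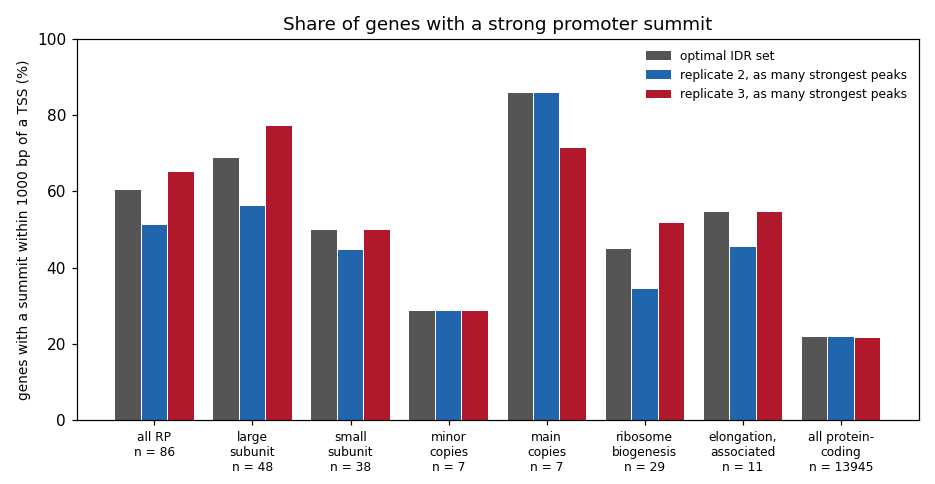
Percentage of genes with a summit within 1000 bp of a TSS (y axis) in the IDR set (grey) and in the strongest 5743 peaks of replicate 2 (blue) and replicate 3 (red), for RP genes, their subgroups, the lists of related genes and all 13945 protein-coding genes. Bars are single shares with no error; the RP bars lie between 51.2% and 65.1%, and those of all genes between 21.6% and 21.9%.

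Duplicated RP genes were counted by copy. Fly RP genes include 7 pairs with a main copy and a minor copy, and for RpS5b, RpS10a and RpS19b the minor copy is known for expression in the germ line. Of the minor copies 2 of 7 (28.6%) had an IDR summit and of the main copies 6 of 7 (85.7%), beside 44 of 72 RP genes outside the pairs (61.1%) and 21.9% of all genes. The share of minor copies was near that of all genes. In the strongest 5743 peaks, the minor copies counted 2 in each replicate and the main copies 6 in replicate 2 and 5 in replicate 3. The count of minor copies was 1 with a window of 500 bp and 4 with a window of 2000 bp, so it rests on few summits and on where the window ends. Main copies had 2 annotated TSSs on average and minor copies 1, so main copies had the larger window. Over all genes 16.6% of those with 1 TSS and 36.4% of those with 2 or more had an IDR summit. With the nearest TSS only, the count of main copies was 5.

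RpL34a and RpL34b were the pair in which both copies had an IDR summit nearest to their own start. RpL34a had pooled rank 2946 at 103 bp upstream, and RpL34b pooled rank 552 at 108 bp upstream. The replicate ranks kept this order, with 3923 for RpL34a and 385 for RpL34b in replicate 2, and 2480 for RpL34a and 730 for RpL34b in replicate 3. Their windows printed above are given in full, and the GC content within 50 bp of the summit was 26.7% at RpL34a and 35.6% at RpL34b. RpL34b also had a second IDR summit, 905 bp downstream, at pooled rank 1608.

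RpS19b was the other minor copy with an IDR summit, at pooled rank 1764, but that summit lay 887 bp upstream and 505 bp from the TSS of the neighbour CG5854, its nearest. The main copy RpS19a had pooled rank 3221 at 29 bp upstream. RpS5b, with pooled rank 20417 at 583 bp upstream, stood against RpS5a with rank 2616 at 102 bp upstream. RpS10a had rank 7006 at 181 bp upstream, and RpS10b rank 2535 at 23 bp upstream. In both of these pairs the main copy had the stronger and the closer summit.

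The other pairs had no pooled summit at the minor copy. RpS28b, the main copy to RpS28a, had its strongest summit 723 bp upstream at pooled rank 1393, 150 bp from l(1)G0320, and a second IDR summit 50 bp upstream at rank 1940. RpL10Ab, the main copy to RpL10Aa, had pooled rank 4255 at 340 bp upstream, and that summit was nearer to CG11597 (236 bp). RpS15Aa, the main copy to RpS15Ab, was the only main copy without an IDR summit, at pooled rank 7823 and 9 bp upstream. The tandem copies RpS14b and RpS14a, neither of which is a minor copy, had pooled ranks of 11661 and 5972 and no summit in replicate 2. How reads were placed between near-identical copies is not given in the sources used here, so the values of tandem copies are uncertain.

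The median RP summit lay closer to the start of the gene than the median summit of all genes. Over the 52 RP genes the median offset was -49 bp (quartiles -103 and -17.5 bp), against -166.5 bp (quartiles -294.25 and -89 bp) over 3052 genes. Within 150 bp of the TSS lay 47 of 52 RP summits (90.4%) and 35.3% of the summits of all genes. In the 50 bp just upstream of the TSS lay 20 RP summits (38.5%), while 3.74% of all genes had theirs there. Of the RP summits 46 were upstream, 5 downstream and 1, at RpL30, on the TSS, and upstream summits made up 85.1% for all genes. Both sets of genes thus had mostly upstream summits, at different median distances.

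**Figure D3:**
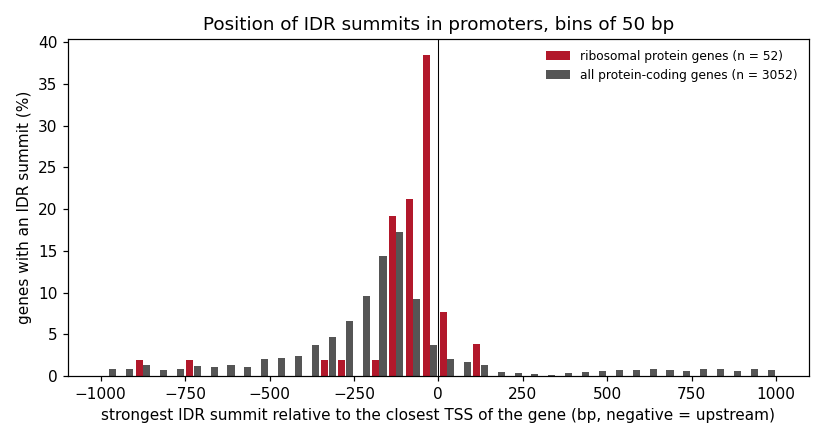
Percentage of genes (y axis) by the position of their strongest IDR summit relative to the closest TSS (x axis, bp in bins of 50, negative upstream), for 52 RP genes (red) and 3052 protein-coding genes (grey). The RP genes peak in the bin just upstream of the TSS, at 38.5%, where all genes have 3.74%.

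The shorter distance was also seen in each replicate and when neighbouring genes were set aside. Over the genes with an IDR summit that both replicates list, the median offset in replicate 2 was -73.5 bp for 50 RP genes and -168 bp for 2935 genes. In replicate 3 it was -40 bp for the RP genes and -165 bp for all of these genes. Restricted to summits with the gene's own TSS as the nearest, the median was -38 bp over 47 RP genes and -142 bp over 2165 genes. The interval width moved with the set as well, with a median of 256 bp for RP summits and 371 bp for all genes. Among such own-start summits with the common 390 bp width, the median distance to the TSS was 56 bp over 17 RP genes and 167.5 bp over 842 genes. Among those of other widths it was 43.5 bp over 30 RP genes and 186 bp over 1323 genes, so the order held in both width classes.

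Against the annotation, 40 of the 52 RP summits fell upstream of the gene, 10 in a 5′ UTR and 2 in an intron. For 34 of the 52 another gene's TSS also lay within 1000 bp of the summit. Neither of these counts was taken over all genes. The own TSS was the nearest for 47 of the 52 RP genes, and for 2165 of all 3052 genes with an IDR summit. The RP exceptions were RpS28b, RpS19b and RpL10Ab, described with the pairs, RpL18, whose summit lay 92 bp from Neos, and RpL13. The RpL13 summit, 107 bp upstream at pooled rank 3421, lay 23 bp from the TSS of Dref, the gene of the factor that binds TATCGATA.

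The median RP summit lay in sequence richer in GC than the median promoter summit. GC content within 50 bp of the summit had a median of 44.6% over the 52 RP summits (range 19.8 to 60.4%), against 28.7% over 2138 IDR summits at promoters of any gene. Of the RP values 46 lay above 28.7% and 6 did not, the lowest being RpL27A at 19.8% and the highest RpL22 at 60.4%. Promoters were taken from 200 bp upstream to 50 bp downstream of the outermost annotated TSS of each gene. Their median GC was 37.8% for RP genes and 38.4% for all genes. Whole promoters thus had similar medians. For the 44 RP genes with 2 or more TSSs, this window need not lie at the start closest to the summit. The motif shares of promoters used the same window. Among summits at like positions, within 100 bp of the gene's own nearest TSS, the median was 47.5% over 35 RP genes and 31.7% over 481 genes.

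**Figure D4:**
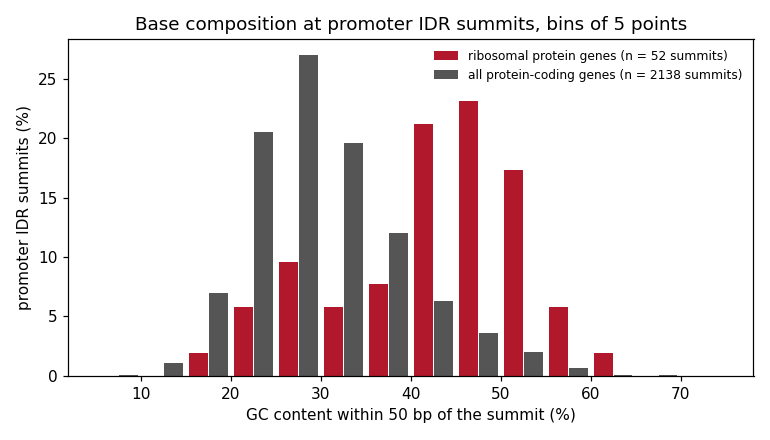
Percentage of promoter IDR summits (y axis) by GC content within 50 bp of the summit (x axis, bins of 5 percentage points), for 52 summits of RP genes (red) and 2138 summits of all protein-coding genes (grey). The RP summits centre on a median of 44.6% and all promoter summits on 28.7%.

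Forkhead letters were present under few of the RP summits. The core TAAACA, counted on both strands, lay within 50 bp of 4 of 52 RP summits (7.69%), those of RpL14, RpL34a, RpS27A and RpL27A, and of 16.7% of the 2138 promoter summits. The longer GTAAACA, which contains the core, lay at 0 of 52 RP summits and at 2.85% of promoter summits. In whole promoters the core was as common as elsewhere, at 26 of 86 RP genes (30.2%) and 27.7% of all genes, and GTAAACA was held by 3 RP promoters (3.49%) and 7.82% of all. None of those 3 genes had an IDR summit, which 34 of all 86 RP genes also lacked. The core was held by 25% of the RP promoters with an IDR summit and by 38.2% of those without. These splits by summit were not counted over all genes. A missing match says only that these letters were not in the window.

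TATCGATA, the DREF site, had the highest count at RP summits of the 9 motifs searched. It lay at 8 of 52 RP summits (15.4%), against 1.36% of promoter summits and 4.49% of the 468 promoter summits within 100 bp of the nearest TSS. The genes were RpL41, RpL28, RpS25, RpL19, RpS12, RpL27, RpL39 and RpS29. RP promoters held it at 24 of 86 genes (27.9%) and all promoters at 8.68%. Its share was 28.8% in the RP promoters with an IDR summit and 26.5% in those without, which are close to each other.

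The other promoter motifs were each found at a few RP summits. GGTCACAC, the core of the motif bound by M1BP, lay at 4 RP summits (7.69%), those of RpLP0, RpL30, RpS23 and RpL37A, against 0.748% of promoter summits and 1.92% of those within 100 bp of the nearest TSS, and in 15.1% of RP promoters against 7.23% of all. The E-box CACGTG, bound by Myc and related proteins, lay at the summits of RpL7, RpL24 and RpL11 (5.77%, against 0.561% of promoter summits and 1.07% of those within 100 bp of the nearest TSS), and in 6.98% of RP promoters against 3.57% of all. TAATTA, a homeodomain core, was present at 3 RP summits (5.77%) and 13.1% of promoter summits, and in 19.8% of RP promoters against 16.5% of all. The TATA box TATAAA lay at 6 RP summits (11.5%) and 27.5% of promoter summits, with 39.5% of RP promoters and 40% of all. GATAAG, for GATA factors, lay at 3 RP summits (5.77%, against 5.1%) and in 11.6% of RP promoters against 16.7% of all. GAGAG, for GAGA factor, lay at 1 RP summit (1.92%, against 6.92%) and in 15.1% of RP promoters against 26.3% of all. At RP summits the shares of both forkhead motifs, the homeodomain core, the TATA box and the GAGA motif were below those of all promoter summits and the shares of the DREF, M1BP and E-box letters above them. The counts behind the RP shares were small, from 0 for GTAAACA and 1 for GAGAG to 8 for TATCGATA. Median GC content was also higher at RP summits, and its part in these shares was not tested.

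**Figure D5:**
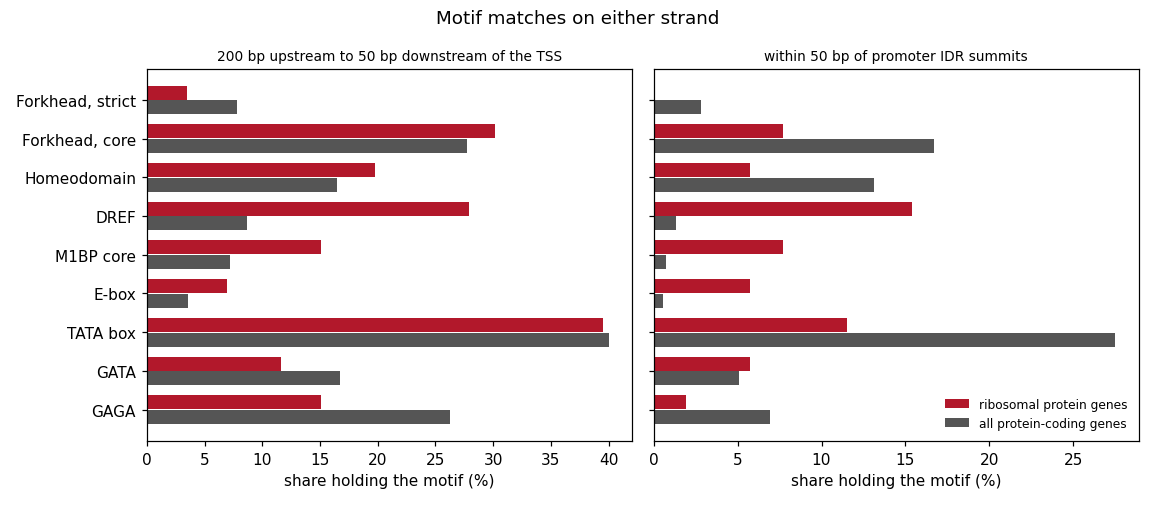
Percentage of promoters holding each of 9 motifs on either strand (left, 86 RP genes in red and all protein-coding genes in grey) and percentage of promoter IDR summits with the motif within 50 bp (right, 52 RP and 2138 summits). The DREF bar reaches 27.9% of RP promoters and 15.4% of RP summits, and the strict forkhead motif has no bar for RP summits because none held it.

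The pyrimidine initiator was searched as CTTT on the coding strand with its C within 5 bp of an annotated TSS. This CTTT match was present at 56 of 86 RP genes (65.1%) and at 1125 of 13945 genes (8.07%). Of RP genes with an IDR summit 34 of 52 (65.4%) had it, and of those without 22 of 34 (64.7%). It was held by 31 of 48 large (64.6%) and 25 of 38 small subunit genes (65.8%). The share with the CTTT match was thus similar with and without an IDR summit, and in both subunits. The 30 bases around the TSS are shown for genes with it (RpL34b at chr3R:9401212-9401241, minus strand, RpL32 at chr3R:30046147-30046176, minus strand, RpLP0 at chr3L:22076077-22076106, plus strand, and RpL40, which had no pooled summit, at chr2L:4227684-4227713, plus strand) and for minor copies without it (RpL34a at chr3R:26059253-26059282 and RpS28a at chr3R:30022634-30022663, both minus strand). Capitals mark the CTTT that was matched, and the transcript starts at the base after the first 15. A gene without this match can still start in a run of pyrimidines, as RpL34a did.
RpL34b: gcgcgaacagggttgccacCTTTctttcta
RpL32: tcacaccaccagCTTTttcttttcgcttct
RpLP0: tgccgccgccaacttcactCTTTccgttct
RpL40: tcggcggcggccacactctCTTTtcccttt
RpL34a: ttcttccagctctagcttctcttcttcctt
RpS28a: gcagcactcacagcttcaaattcaaatctt

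The replicates listed overlapping but unequal sets of RP genes. Summits were present in both full lists for 63 genes, in replicate 2 only for 1, in replicate 3 only for 20 and in neither for 2. In the strongest 5743 peaks, 41 genes were in both, 3 in replicate 2 only, 15 in replicate 3 only and 27 in neither. These splits were not counted over all genes. Of all genes, 51% had a summit in the full replicate 2 list and 57.4% in that of replicate 3. Among the strongest 5743 peaks the shares were 21.8% and 21.6%. Of the 50 RP genes with an IDR summit listed in both replicates, 28 (56%) ranked stronger in replicate 3, while 36.3% of 2935 such genes overall did. The median ranks of these RP genes were 3103.5 in replicate 2 and 2783.5 in replicate 3, so the replicate 3 ranks were on the whole the stronger.

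Ranks and positions at RP genes also varied between the replicates. Across those 50 genes the Spearman correlation of ranks was 0.542, against 0.859 across the 2935 genes. The points share the 2 libraries and their selection from the pooled list, and pooled ranks ran from 512 to 5470 for the RP genes and from 1 to 5743 for all genes. The replicate summits of an RP gene lay a median of 33.5 bp apart, against 22 bp for all genes, and 88% of RP pairs and 90.4% of all pairs were within 100 bp. Among these 50 genes the gap in rank between replicates was largest at RpL27, a large subunit protein, which ranked 16848 in replicate 2 with a summit 913 bp downstream and 3049 in replicate 3 with a summit 12 bp upstream. RpL23 ranked 1250 in replicate 2 and 3752 in replicate 3, and RpL24 ranked 5520 in replicate 2 and 2072 in replicate 3.

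The counts were also taken by features of the gene models. Of 29 RP genes that host small nucleolar RNAs, 22 (75.9%) had an IDR summit, and of 57 that do not, 30 (52.6%), beside 21.9% of all genes. The RP hosts had 1.97 annotated TSSs on average and the other RP genes 1.63. Host genes were not counted over all genes, so a like share is not known. RP genes had 1.74 annotated TSSs on average and all genes 1.41, and a gene with more starts has a larger window. With 1 annotated TSS, 23 of 42 RP genes (54.8%) and 16.6% of all genes had an IDR summit. With 2 or more, 29 of 44 RP genes (65.9%) and 36.4% of all genes did, so the RP share was the higher in both classes.

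Genes that work beside the ribosome were set next to the RP genes from lists of ribosome biogenesis and of translation elongation. Of 29 matched biogenesis genes 13 (44.8%) had an IDR summit and of 11 elongation and ribosome-associated genes 6 (54.5%), beside 60.5% of RP genes and 21.9% of all genes. The biogenesis genes included stronger peaks, with Ns2, a nucleostemin family GTPase, at pooled rank 166 and eIF6, an anti-association factor of the large subunit, at rank 187. Their median offset was -163 bp and median summit GC 27.7%, both close to the values of all genes. The elongation list had a median offset of -30.5 bp and a median summit GC of 45.5%. Its strongest were eEF1gamma, a subunit of the factor that recharges eEF1alpha, at pooled rank 1175 and 36 bp upstream, and pAbp, the poly(A) binding protein, at rank 1539 and 479 bp downstream. Rack1, a scaffold protein of the small subunit, had rank 3802 at 25 bp upstream. By position and base composition the elongation genes lay near the RP genes and the biogenesis genes near all genes, with 6 and 13 summits behind these medians, and the difference between lists was not tested.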

How the data were processed

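ChIP-seq for GFP-tagged fd96Cb was available as peak lists for replicates 2 and 3, for both pooled and as an optimal IDR set, in dm6 coordinates per the labels. Chromatin was sonicated to 200 to 800 bp, per the labels. Each peak carries a signal value, a −log10 q-value and a summit offset as the authors deposited them. The signal served only for ranking; the −log10 q-value deposited by the authors is 4.13 throughout the IDR set and was not used. Which aligner and peak caller were run, and at which IDR threshold, is not given in the sources used here. Depth is unknown, and control reads were not used here.

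Genes and 19607 TSSs came from Ensembl release 115, and sequence from RefSeq Release 6. At most 4 summits in a list lay outside their interval and were moved to its edge. No promoter or protein table was used, so promoters were read from the genome at the outermost annotated TSS of each gene. Motif shares over all genes' summits count a peak shared by several genes once. As a check of the code alone, 200 of 200 summits planted within 1000 bp of real TSSs were assigned to their genes. It says nothing about the deposited peaks. Python 3.11.15, numpy 2.4.6, scipy 1.17.1 and matplotlib 3.10.9 were used, and no p-value was computed.

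The members, related lists, pairs and motifs were chosen with earlier results of these data known. Named genes are the 12 strongest IDR members, all copies of pairs, sta, RpS2 and the P proteins, the 3 members on each side of the IDR limit, those with no pooled summit and the 3 members with an IDR summit that had the largest gap between replicate ranks. The largest gap was measured on log ranks. The values of some single genes are not reported here. RpS3A, RpL13, RpL30, RpL22 and members named for a motif were named after their values were seen. Alternatives were the window, the TSS set, the stronger part of the IDR set, the nearest TSS, each replicate alone and a wider motif window.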

Additional observations from a re-analysis of the deposited data

How the results depend on the processing

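With only the stronger 50% of the IDR set, 26 RP genes, 16 large and 10 small subunit genes and 1 minor copy had a summit, with 12.9% of all genes. The count of 52 was 51 at 500 bp (all genes 18.5%), 56 at 2000 bp (27.7%), 52 with 1 TSS per gene (19.7%) and 48 with the nearest TSS only (15.9%). Minor copies, 2 in the IDR set, numbered 1 at 500 bp, 4 at 2000 bp and 1 with the nearest TSS only. From each replicate alone, the strongest 5743 peaks gave 44 to 56 RP genes, 27 to 37 large and 17 to 19 small subunit genes, a median offset of -88.5 to -27 bp and a median rank of 2686.5 to 2916. The lowest of these ranks, 2686.5, came from replicate 2 alone. Within 100 bp of the summit, TAAACA lay at 7 RP summits (13.5%, against 28.6% of promoter summits), TAATTA at 5 (9.62%, against 22.2%), the TATA box at 10 (19.2%, against 43.3%), GATAAG at 5 (9.62%, against 10.7%) and GAGAG at 3 (5.77%, against 16.3%). TATCGATA lay at 11 (21.2%), against 4.26% of promoter summits and 10.9% of those within 100 bp of the nearest TSS. In the same order, GGTCACAC lay at 6 (11.5%, against 2.2% and 7.05%) and CACGTG at 4 (7.69%, against 1.59% and 2.99%). The nearest-TSS setting for offset, upstream share and rank was chosen after seeing the data.

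No paired analysis was possible because there is a single group. With 2 libraries, unknown depth and no control peak list, the values describe these lists, and counts over genes carry no replicate error.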

Other observations

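RP genes with an IDR summit were spread over the arms, at 6 of 14 on X, 8 of 17 on 2L, 12 of 18 on 2R, 11 of 14 on 3L, 14 of 22 on 3R and 1 of 1 on 4. The corresponding shares over all genes ran from 13.8% on 4 to 23.3% on 3L.

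Genes with hyphenated RP symbols, which the member rule leaves out, had an IDR summit in 1 of 7 cases (14.3%), near the 21.9% of all genes. That gene, RpLP0-like, had pooled rank 4953, and its summit was nearest to the TSS of 14-3-3zeta, 23 bp away. RpL37-1 had a pooled summit at rank 6726, 8 bp upstream of its TSS, with ranks of 9282 in replicate 2 and 7296 in replicate 3.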
